A study of Mus musculus with 6 samples.

Results

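The Ifi200 genes and Aim2 form a cluster of interferon-inducible genes on mouse chromosome 1. The 10 members described here are Ifi202b, Ifi203, Ifi204, Ifi205, Ifi207, Ifi208, Ifi209, Ifi211, Mndal and Aim2. They were taken by name from a table of 11835 genes with at least 1 listed transcript, and all 10 had a value, summed over 20 transcripts. The choice was made with the difference between siCNN3 and siNC already known, so the members were chosen by the measured FPKM of these 6 libraries, the same values given below. Levels and differences of the members, and the counts of members past the threshold of the fit over all genes, are therefore a description and support nothing, and no p is given for a member.

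C2C12, a single line of mouse myoblasts, was the source of the RNA, and it fuses into myotubes in low serum. Cells were differentiated in medium with 2% horse serum, and the labels name the cell type as mouse myotube. Of the 6 libraries, 3 came from cells transfected with NC siRNA (siNC), a control siRNA, and 3 from cells transfected with CNN3 siRNA (siCNN3), directed against calponin 3, an actin-binding protein. The labels give no genetic change in either group, no statement of which CNN3 siRNA was used, no harvest time, and no word on whether the 3 libraries of a group were separate cultures. The study's methods say that differentiating myoblasts were sequenced, and they describe a second transfection before harvest for differentiation, but they do not tie that schedule to the sequenced libraries by name.

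Proteins of this family carry a HIN domain, which binds double-stranded DNA, and most also carry a pyrin domain, which joins them to other pyrin-domain proteins. Aim2 is the cytosolic DNA sensor that assembles an inflammasome through the adaptor Asc and caspase-1. p202, the product of Ifi202b, lacks a pyrin domain and is known as an antagonist of Aim2, and p204, the product of Ifi204, is known both as a DNA sensor and for its induction by MyoD and its binding of Id proteins during muscle differentiation. Interferons induce transcription of most of the family through the response element ISRE.

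Values are FPKM, the fragments of a transcript per length of that transcript and per number of fragments in the library, so levels of different genes can be set side by side on this per-length scale. Fold changes on the log2 scale are of FPKM + 1 and understate the change of genes with low levels. "Called" means an adjusted p (limma, Benjamini-Hochberg over all genes tested) under 0.05. The read depth behind the FPKM is unknown, so no counting error can be given. In bulk RNA, a change in the share of cells with a transcript and a change in the RNA per cell cannot be told apart.

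In the deposited table Cnn3, the targeted gene, was at 62.8, 61.4 and 62.8 FPKM in siNC replicates 1 to 3 and at 19.0, 39.2 and 25.6 FPKM in siCNN3. The siCNN3 mean was 44.8% of the siNC mean, without overlap of the groups, with a log2 fold change of -1.19 (SE 0.24) that was not called (limma adjusted p = 0.067). The exact two-sided permutation p was 0.1, the lowest that 3 against 3 can give. Of the muscle markers checked, 17 were listed, and Acta1, encoding skeletal muscle actin, had 24.6, 33.8 and 26.9 FPKM in the siNC libraries and 5.37, 5.35 and 6.43 FPKM in the siCNN3 libraries. Where the labels do not say that libraries are separate cultures, p-values measure only the spread between these libraries.

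The members spanned 680.9 kb of chromosome 1 in build GRCm38, from 173350879 to 174031810. Aim2 lies at one end (173350879 to 173466040, plus strand). The 9 Ifi200 genes begin with Ifi209 (173630917 to 173647928) and Ifi208 (173673675 to 173698395), both also on the plus strand. The other 7 are on the minus strand, in the order Ifi207 (173723427 to 173741747), Ifi204 (173747293 to 173766943), Mndal (173849126 to 173942491), Ifi211 (173896345 to 173913046), Ifi203 (173920407 to 173942672), Ifi202b (173962568 to 173982744) and Ifi205 (174011998 to 174031810). The annotated span of Mndal encloses Ifi211 and overlaps that of Ifi203, since 1 of its listed transcripts starts at 173942491, inside Ifi203.

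Sequences before the transcription starts were compared next, and the choice of members did not use them. The members are, however, a single family of interferon-inducible genes with shared sequence, so matches in several of them are not independent. RefSeq promoter windows of build GRCm38.p6, 250 bases before to 50 bases after a start, were given for 9 of the 10 members, in 11 windows (Ifi204 is missing from the table). An ISRE-like motif, searched on both strands as GAAANNGAAA (TTTCNNTTTC on the other strand), was present in 6 of these 9 genes, compared with 3.99% of the 27025 genes and 3.44% of the 32851 windows in the table. The part of this motif in the differences between siNC and siCNN3 was not tested. The stretches below are 50 bases on the strand of the gene, with the 10 bases of the motif in capitals. They are shown because nearly the same motif recurs in front of several members.
Ifi203, chr1:173942498-173942547, minus strand: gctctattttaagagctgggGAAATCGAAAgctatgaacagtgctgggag
Mndal, chr1:173880194-173880243, minus strand: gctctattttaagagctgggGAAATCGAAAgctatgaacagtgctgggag
Ifi207, chr1:173741821-173741870, minus strand: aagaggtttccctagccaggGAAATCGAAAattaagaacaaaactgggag
Ifi211, chr1:173913054-173913103, minus strand: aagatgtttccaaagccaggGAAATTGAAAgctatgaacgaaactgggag
Ifi205, chr1:174031860-174031909, minus strand: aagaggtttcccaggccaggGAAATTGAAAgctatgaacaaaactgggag
Ifi208, chr1:173673587-173673636, plus strand: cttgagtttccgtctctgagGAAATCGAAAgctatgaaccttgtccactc
Ifi209, chr1:173630760-173630809, plus strand: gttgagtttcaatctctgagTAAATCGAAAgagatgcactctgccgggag

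The stretches of Ifi203 and Mndal were identical in 50 of 50 bases, and those of Ifi211 and Ifi205 in 46. The motif began 35 bases before the start in Ifi203 (-35), at -36 in Mndal, at -37 in Ifi211 and at -41 in Ifi207. It lay farther away in Ifi208 (-58) and in Ifi205 (-134). Ifi205 had a further match on the opposite strand at 24 bases after the start, and the second window of Mndal had one at -54, while the second window of Ifi203 had none. The 2 forms seen, GAAATCGAAA and GAAATTGAAA, were present on the strand of the gene in 33 of the 32851 windows (0.10%), a count that uses forms read from the members themselves.

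Ifi209 did not hold the motif in full. Its closest match, at -79, was TAAATCGAAA, which differs from the form in Ifi203 by G1T (positions are counted from 1 at the 5' end of the motif). Within 1 mismatch of either form lay 1.89% of all windows. The remaining members with a window, Ifi202b and Aim2, had no ISRE-like match there. Ifi202b instead held the GAS-like motif TTCNNNGAA, named for the interferon gamma-activated site, at -148, shown because it was the only such match among the members, with the motif in capitals.
Ifi202b, chr1:173982964-173983012, minus strand: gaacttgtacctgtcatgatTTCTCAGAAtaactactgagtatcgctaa

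GAS-like matches occurred in 9.55% of all genes and 8.30% of all windows. The E-box CAGCTG, a motif bound by MyoD, was present in Ifi208 and Ifi209, 2 of the 9 genes, compared with 18.3% of all genes and 16.3% of all windows. No ISRE-like match overlapped a GAS-like match or an E-box in these windows, and none of the 3 motifs was in the window of Aim2. That window starts 34367 bases from the nearest 5' end of a listed Aim2 transcript, whereas in the other 8 genes a listed transcript began within 100 bases of a window's start. The Aim2 window therefore covers the start of no Aim2 transcript listed here.

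All 9 Ifi200 genes were higher in each siCNN3 library than in any siNC library, and so, by a small margin, was Aim2. Of the 10 members, 8 were called higher and 0 lower in the fit over 11593 genes, in which 1.73% of genes were called higher and 0.336% lower. Ifi205 and Ifi208, both among these 8, passed the minimum level only through siCNN3. In 13.8% of all genes every siCNN3 library was above every siNC library. Since this contrast chose the members, nothing is read from these shares. The median log2 fold change of the members was 3.10, compared with 0.03 over all genes tested, whose 95th percentile was 0.74. The count of called members rested on which libraries were used, and it was 9 without siCNN3 replicate 3, 5 without siNC replicate 1, 1 without siNC replicate 3, 5 without siCNN3 replicate 1 and 3 without siCNN3 replicate 2. Over all genes, the counts called higher in these fits were, in the same order, 443, 71, 16, 39 and 28, compared with 200 in the main fit. The loss of calls was thus not particular to the members.

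**Figure D1:**
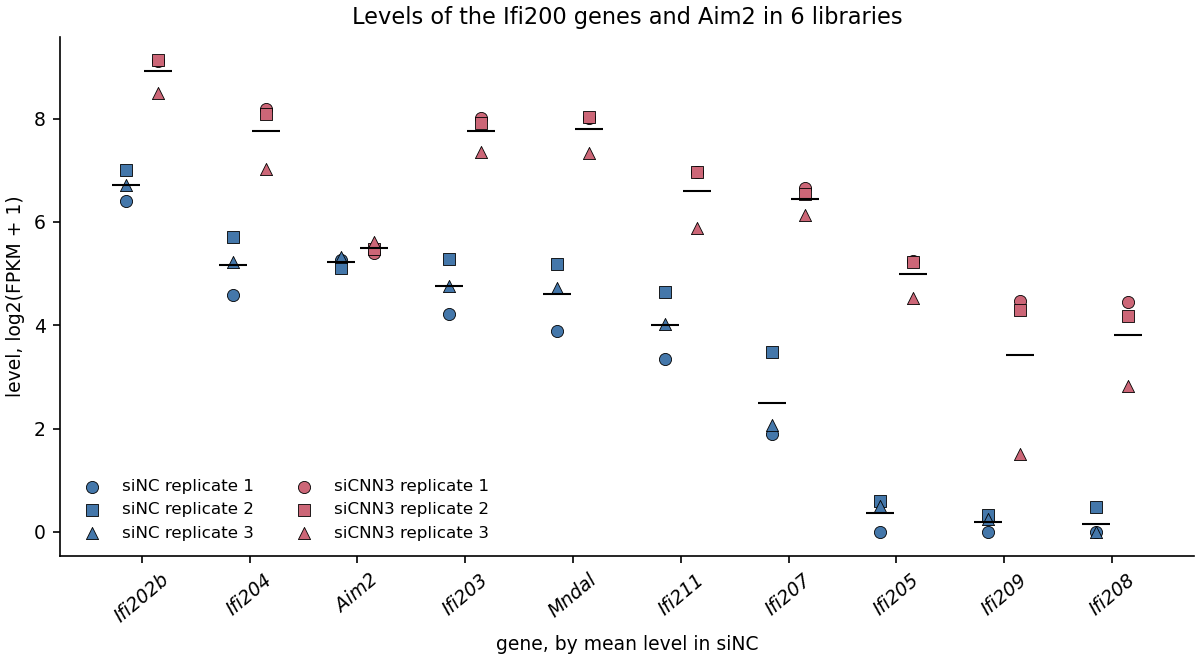
Levels of the 10 members in each library as log2(FPKM + 1), ordered by mean level in siNC (blue, left) and with siCNN3 in red (right). Shapes mark replicates 1 to 3 and black lines the mean of the 3 log2 values. The siCNN3 points lie above the siNC points in every gene, with the narrowest gap in Aim2 and siCNN3 replicate 3 lowest in 9 genes.

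Ifi202b, encoding the antagonist of Aim2, had the highest level of the members in both groups. It had 83.4, 127.9 and 104.1 FPKM in the siNC libraries and 551.1, 558.0 and 360.2 FPKM in the siCNN3 libraries. All siCNN3 libraries were at least 2.82 times the highest siNC library. The means were 105.1 ± 22.3 and 489.7 ± 112.3 FPKM (SD, n = 3 each), 4.66-fold apart, with a log2 fold change of 2.20 (SE 0.22). This was the smallest log2 fold change among the 9 Ifi200 genes, from the highest starting level.

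Ifi204, encoding the DNA sensor p204 that is linked to muscle differentiation, had 23.0, 51.3 and 36.4 FPKM in the siNC libraries and 289.3, 271.1 and 129.3 FPKM in the siCNN3 libraries. Replicate 3 of siCNN3 was lower than the other 2 but remained above all siNC libraries. The log2 fold change was 2.59 (SE 0.39). Its listed transcript has 2296 nucleotides and 9 exons.

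Ifi203, a nuclear family member with a pyrin domain, had 17.6, 37.8 and 26.0 FPKM in the siNC libraries and 257.7, 238.8 and 162.1 FPKM in the siCNN3 libraries. Mndal, which is named for its likeness to the myeloid nuclear differentiation antigen, had 13.8, 35.2 and 25.5 FPKM in the siNC libraries and 258.5, 261.7 and 159.8 FPKM in the siCNN3 libraries. These neighbours had siCNN3 means of 219.5 ± 50.6 and 226.6 ± 57.9 FPKM. Their log2 fold changes were 3.01 (SE 0.29) for Ifi203 and 3.20 (SE 0.35) for Mndal.

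Ifi211 had 9.13, 23.9 and 15.4 FPKM in the siNC libraries and 123.8, 123.8 and 58.0 FPKM in the siCNN3 libraries, with a log2 fold change of 2.60 (SE 0.41). Ifi207 had 2.73, 10.2 and 3.23 FPKM in the siNC libraries and 100.1, 92.0 and 69.6 FPKM in the siCNN3 libraries. In both genes the groups stood apart, and in Ifi207 the siCNN3 libraries were closer to each other than in Ifi211. The mean of Ifi207 was 16.2-fold higher in siCNN3, with a log2 fold change of 3.96 (SE 0.41).

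A set of 3 genes was near or at 0 in siNC and passed the minimum level only through siCNN3. Ifi205 was listed at 0 in siNC replicate 1 and at 0.523 and 0.420 FPKM in the other 2, and it was at 37.1, 36.6 and 22.0 FPKM in siCNN3. Its log2 fold change of 4.63 (SE 0.26) was the largest of the members, and the lowest siCNN3 library was 42.0 times the highest siNC library. Ifi208 had listed values of 0, 0.407 and 0 FPKM in the siNC libraries and 21.0, 17.2 and 6.05 FPKM in the siCNN3 libraries, with a log2 fold change of 3.66 (SE 0.43). An exact 0 in a table without counts can be a failed estimate, and 238 transcripts that had at least 10 FPKM in 1 library were listed at 0 in another library of that group.

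Ifi209, the gene with G1T in its closest match, had listed values of 0, 0.251 and 0.187 FPKM in the siNC libraries and 21.1, 18.6 and 1.84 FPKM in the siCNN3 libraries. Replicate 3 of siCNN3 was far below the other 2, although it lay above all siNC libraries. The log2 fold change was 3.23 (SE 0.74), with the largest SE of the members, and Ifi209 was not called. It was called only without siCNN3 replicate 3, out of 15 alternative fits.

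Aim2, the inflammasome sensor, had 37.5, 33.4 and 39.1 FPKM in the siNC libraries and 41.1, 43.6 and 48.2 FPKM in the siCNN3 libraries. The means were 36.7 ± 2.96 and 44.3 ± 3.57 FPKM (SD, n = 3 each), 1.21-fold apart, and the lowest siCNN3 library was 1.05 times the highest siNC library. The log2 fold change of 0.27 (SE 0.12) was not called in this fit or in any of the 15 alternatives. Aim2 was thus measured at a level like that of Ifi204 in siNC, and it was the member with the smallest log2 fold change.

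**Figure D2:**
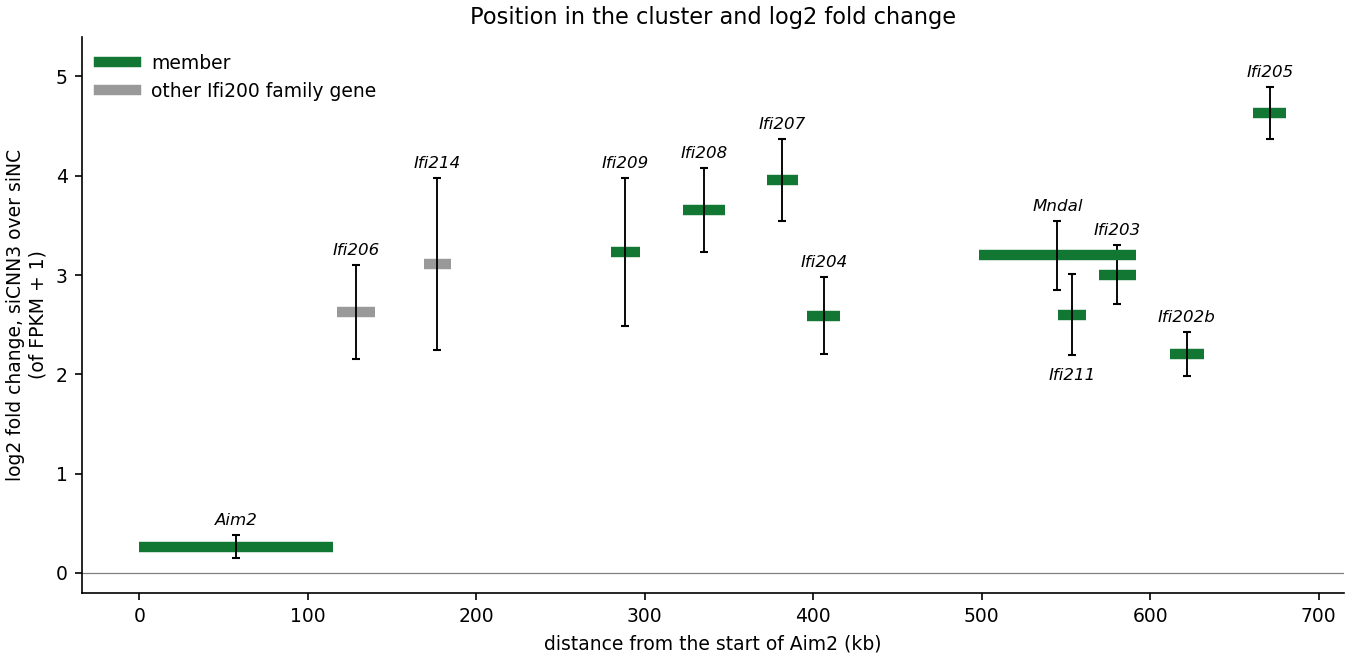
Log2 fold change of FPKM + 1 (siCNN3 over siNC) of each tested gene, with its SE, against its distance from the start of Aim2 in kb. Bars span the annotated gene, green for members and grey for other Ifi200 family genes. Aim2 at the left end is at 0.27, and the Ifi200 genes lie between 2.20 (Ifi202b) and 4.63 (Ifi205).

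The order of the levels differed between the groups. In siNC, Ifi202b was followed by Ifi204 (36.9 ± 14.2 FPKM), Aim2, Ifi203 (27.1 ± 10.1), Mndal (24.8 ± 10.7), Ifi211 (16.1 ± 7.44) and Ifi207 (5.39 ± 4.19), and the neighbours from Ifi204 to Ifi211 did not differ beyond the spread over libraries. Within each siNC library, however, Ifi204 was above Ifi203 (1.31 to 1.40 times), Ifi203 above Mndal (1.02 to 1.28 times) and Mndal above Ifi211 (1.47 to 1.66 times). Aim2 had no fixed place in this order, and Ifi204 was between 0.614 and 1.54 times Aim2. In siCNN3, Ifi202b was followed by Ifi204 (229.9 ± 87.6), Mndal and Ifi203, which did not differ beyond their spread and whose order also varied within libraries. Then came Ifi211 (101.9 ± 38.0) and Ifi207 (87.2 ± 15.8), again within their spread, with Ifi211 above Ifi207 in 2 of the 3 libraries. Aim2 came after them, above Ifi205 (31.9 ± 8.60), Ifi208 (14.7 ± 7.75) and Ifi209.

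The FPKM of the 9 Ifi200 genes together was 149.7, 287.5 and 211.2 in siNC and 1660, 1618 and 968.8 in siCNN3. The mean sum was 6.55-fold higher in siCNN3. The make-up of this sum differed as well. Ifi202b made up 49.8% ± 5.64 of it in siNC and 35.0% ± 2.03 in siCNN3 (SD, n = 3 each), and the share of Ifi207 was 2.30% ± 1.09 in siNC and 6.30% ± 0.781 in siCNN3. Mndal contributed 11.2% ± 1.71 in siNC and 16.1% ± 0.466 in siCNN3. The share of Ifi211 was 7.23% ± 1.12 in siNC and 7.03% ± 0.908 in siCNN3, and that of Ifi204 was 16.8% ± 1.28 and 15.8% ± 2.19, both within the spread between libraries.

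The libraries of a group were not alike, and the members deviated together. In siNC, replicate 2 was the highest and replicate 1 the lowest library in 9 of the 10 members, tied with replicate 3 at 0 in Ifi208, and Aim2 was the exception. In Ifi202b replicate 2 was 1.53 times replicate 1, and in Ifi207 it was 3.74 times. In siCNN3, replicate 3 was the lowest library in the same 9 members and the highest in Aim2. Its level was 113.7% of the mean of the other 2 siCNN3 libraries in Aim2, between 59.6% and 72.4% in Ifi202b, Ifi203, Ifi205, Ifi207 and Mndal, 46.2% in Ifi204, 46.9% in Ifi211, 31.7% in Ifi208 and 9.30% in Ifi209.

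Cnn3 itself was lowest in siCNN3 replicate 1 and highest in replicate 2, so the libraries' order in Cnn3 was not their order in the members. In siCNN3 replicates 1 and 2 the FPKM sums of the 9 Ifi200 genes were close (1660 and 1618), while Cnn3 was at 19.0 and 39.2 FPKM. The part of the Cnn3 level in the differences between libraries was not tested.

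**Figure D3:**
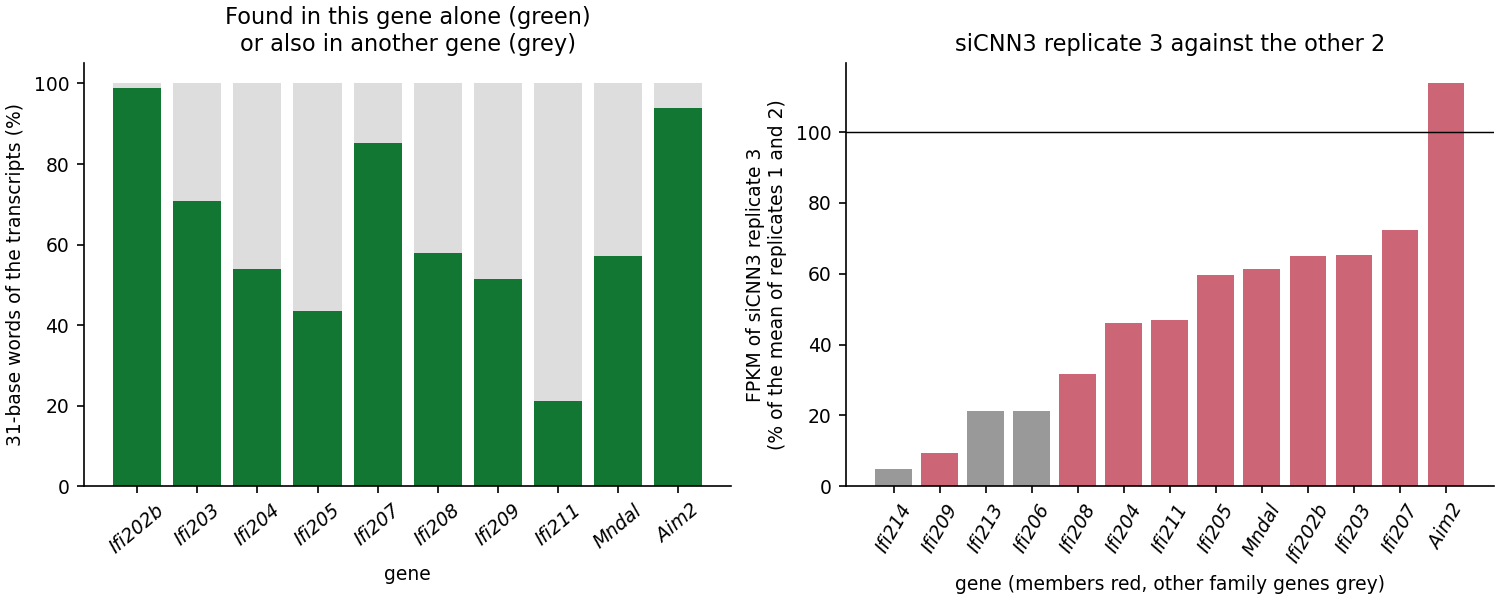
Left, the percentage of the 31-base words in the transcripts of each member that occur in that gene alone (green) or also in another gene (grey). Right, the FPKM of siCNN3 replicate 3 as a percentage of the mean of siCNN3 replicates 1 and 2, with members in red, other family genes in grey and a line at 100%. Ifi211 has the smallest share of its own words (21.1%), and Aim2 alone lies above 100%.

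Family members share sequence, and estimates of single genes are uncertain to that extent. Over the listed transcripts, the share of 31-base words that also occur in another gene was 78.9% in Ifi211, 56.5% in Ifi205, 48.6% in Ifi209, 46.0% in Ifi204, 42.8% in Mndal and 42.1% in Ifi208. It was lower in Ifi203 (29.1%) and Ifi207 (14.8%), and lowest in Aim2 (5.99%) and Ifi202b (1.20%). Ifi205 and Ifi211 shared most with each other, with 54.1% of the words of Ifi205 found in Ifi211. Ifi204 and Ifi211 also shared sequence, with 38.6% of the words of Ifi211 found in Ifi204 and 29.5% of those of Ifi204 in Ifi211. Ifi209 shared 48.2% of its words with Ifi214, and Ifi208 shared 36.8% with Ifi213. The 3 genes with the least shared sequence, Ifi202b, Aim2 and Ifi207, had log2 fold changes of 2.20, 0.27 and 3.96. The part of shared sequence in the differences was not tested.

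Transcripts of 1 gene were less stable than the gene. Ifi203 had 4 listed transcripts that share most of their exons. ENSMUST00000081216 was at 168.0, 85.6 and 88.8 FPKM in siCNN3, and ENSMUST00000123708 was at 0.809, 75.8 and 1.08 FPKM in the same libraries. ENSMUST00000042228 had the opposite pattern, at 33.1, 2.11 and 29.6 FPKM. The sums over the gene, at 257.7, 238.8 and 162.1 FPKM, did not show this exchange.

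In Mndal, the 762-nucleotide transcript ENSMUST00000190651 held 56.0% of the FPKM of the gene in siNC and 65.5% in siCNN3. The transcript that starts inside Ifi203, ENSMUST00000111210, had 3.61, 4.68 and 7.84 FPKM in the siNC libraries and 32.0, 48.2 and 19.5 FPKM in the siCNN3 libraries. Aim2 rested on ENSMUST00000166137, with 81.5% of its FPKM in siNC and 83.2% in siCNN3. Ifi207 rested on ENSMUST00000042610, with 89.1% and 97.4%. Fitted as single transcripts, 19 of the 20 passed the minimum level and 7 were called higher, in a fit of 21658 transcripts in which 0.462% were called higher. The most abundant transcripts of Ifi203, Ifi204 and Ifi211 were not called in that fit.

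**Figure D4:**
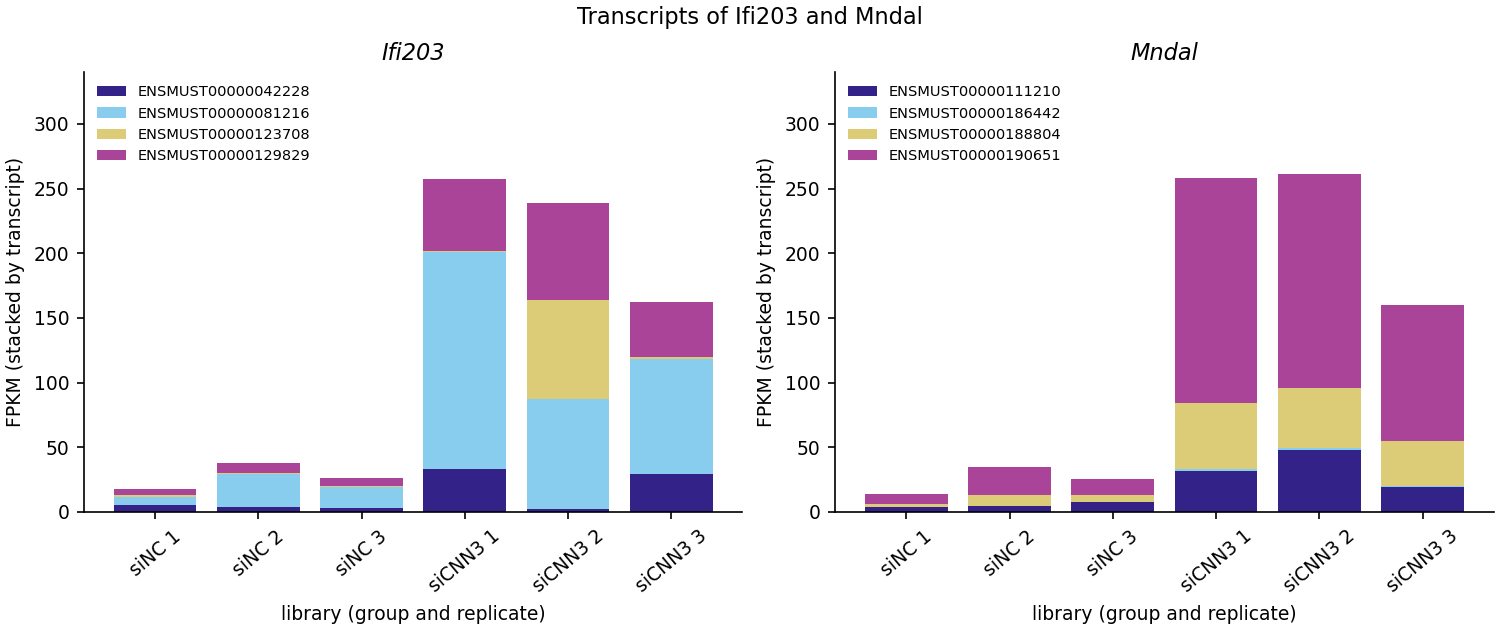
FPKM of each listed transcript of Ifi203 (left) and Mndal (right), stacked to the level of the gene, in each of the 6 libraries. In Ifi203 the transcript ENSMUST00000123708 is at 75.8 FPKM in siCNN3 replicate 2 and near 1 FPKM in the other siCNN3 libraries, while in Mndal the transcript ENSMUST00000190651 is the most abundant in every library, with 49.6% to 67.3% of the gene.

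Within 500 kb of the outermost members, the other genes listed were Ifi206, Ifi213 and Ifi214, which are of the same family. Ifi206 had listed values of 0, 0.097 and 0.063 FPKM in the siNC libraries and 9.16, 8.42 and 1.87 FPKM in the siCNN3 libraries, with a log2 fold change of 2.63 (SE 0.47). It passed the minimum level only through the siCNN3 libraries, so no call is given for it. Ifi214 had listed values of 0, 0 and 0.199 FPKM in the siNC libraries and 18.5, 19.5 and 0.943 FPKM in the siCNN3 libraries and likewise passed only through siCNN3. Ifi213, named after its values were seen, stayed under the minimum level, with at most 1.07 FPKM.

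These genes lie between Aim2 and Ifi209 and had the same low replicate 3 of siCNN3 as Ifi209. That library was at 4.96% of the mean of the other 2 in Ifi214 and at 21.2% in both Ifi206 and Ifi213. The ISRE-like form of Ifi203, GAAATCGAAA, was present in the windows of all 3, at -40 in Ifi206, -73 in Ifi213 and -79 in Ifi214. The listed Ifi206 transcript begins 277 bases after the start that its window uses, so that window does not reach the start of the transcript measured. All 3 windows also held the E-box CAGCTG. Around that form, the window of Ifi214 matched the printed stretch of Ifi209 in 45 of 50 bases, and that of Ifi213 matched the stretch of Ifi208 in 50 of 50.

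The genes most like each member were found by the root mean square difference of log2(FPKM + 1) over the 6 libraries, each gene centred on its siNC mean. Ifi204 and Ifi211 were each other's nearest members, at 0.06, and Ifi203 and Mndal were next, at 0.17. Outside the cluster, Ifi202b was nearest to H2-T22 (0.10), Ly6c2 (0.13) and Phf11c (0.14). Ifi203 was nearest to H2-K1, which encodes a class I antigen-presenting molecule (0.12), to the DNA exonuclease gene Trex1 (0.12) and to H2-Q4 (0.17). Ifi204 was nearest to the immunoproteasome gene Psmb10 (0.13), Ddx60 (0.18) and Dtx3l (0.18), and Ifi211 to Dtx3l (0.14), Psmb10 (0.15) and Samd9l (0.18).

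Ifi205 was nearest to the nucleic acid sensor gene Zbp1 (0.17) and to Oas2 (0.29) and Oas3 (0.40), which encode RNA-activated enzymes. Ifi207 was nearest to the guanylate-binding protein genes Gbp2b (0.22) and Gbp2 (0.26) and to Sp100 (0.37). Ifi208 was nearest to the immunoproteasome gene Psmb9 (0.09), Oas1g (0.20) and Gm43302 (0.22), and Mndal to Herc6 (0.15), Trex1 (0.22) and H2-K1 (0.22). Of the uncalled members, looked up after their values were seen, Ifi209 was nearest to Cmpk2 (0.17). Aim2 was nearest to Ccdc61 (0.03), and its nearest member, Ifi202b, was at 1.41.

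Genes that act beside the members were read from lists of pathway genes. Of 24 genes of cytosolic DNA sensing, 3 were called higher and 0 lower, and the median log2 fold change was 0.05. Over all genes tested, 1.73% were called higher and 0.336% lower, and the median was 0.03. With 1 library left out, between 16 and 443 of all genes were called higher. Xrcc5, named after its values were seen, was called lower under median-of-ratios scaling and under quantile normalization. Zbp1 had 2.02, 5.81 and 4.71 FPKM in the siNC libraries and 146.3, 137.1 and 80.9 FPKM in the siCNN3 libraries (limma adjusted p = 0.0047). Trex1, whose product degrades cytosolic DNA, rose by 2.99 on the log2 scale (limma adjusted p = 0.014), and Samhd1, which encodes a nucleotide hydrolase, rose by 1.52 (limma adjusted p = 0.0099). Zbp1 was the only gene of this list called higher without siNC replicate 3 or without siCNN3 replicate 2, and Trex1 was not called without siCNN3 replicate 1 either. The DNA sensor gene Cgas and Tmem173, which encodes STING, were looked at after their values were seen, had overlapping groups and were not called.

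Of 13 genes of inflammasomes and their regulation, not all of them partners of Aim2, 1 was called higher and 0 lower. Over all genes, 1.73% were called higher and 0.336% lower. The median log2 fold change of the list was 0.53. The called gene was Il18bp, which encodes a decoy of interleukin-18. It had 1.20, 0.962 and 0.787 FPKM in the siNC libraries and 21.9, 30.5 and 10.8 FPKM in the siCNN3 libraries (limma adjusted p = 0.0099). Casp1, the protease gene of the Aim2 inflammasome, named after its values were seen, had 3.29, 4.41 and 5.19 FPKM in the siNC libraries and 11.2, 11.0 and 6.70 FPKM in the siCNN3 libraries and was not called (limma adjusted p = 0.098). Without siNC replicate 3, 0 genes of the list were called, and without siCNN3 replicate 3, 4 were called, Casp1 among them. The adaptor gene Pycard (Asc) and Il1b were not analysed here.

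Of 17 genes of interferon signalling, 2 were called higher and 0 lower, compared with 1.73% and 0.336% of all genes. The median log2 fold change of the list was 0.32. Irf7, a transcription factor gene, had 0.796, 11.8 and 5.33 FPKM in the siNC libraries and 130.8, 121.5 and 76.6 FPKM in the siCNN3 libraries (limma adjusted p = 0.031). It had siNC replicate 1 lowest, siNC replicate 2 highest and siCNN3 replicate 3 lowest in its group, the order found in the 9 Ifi200 genes. Ifnb1, the interferon beta gene, named after its values were seen, had listed values of 0, 0.225 and 0 FPKM in the siNC libraries. In the siCNN3 libraries it had 6.60, 7.78 and 1.01 FPKM. Ifnb1 passed the minimum level only through siCNN3, so no call is given for it. The count called in this list was 0 when siNC replicate 3, replicate 1 of siCNN3 or replicate 2 of siCNN3 was left out. It was 1 without siNC replicate 1, 5 without siNC replicate 2 and 4 without siCNN3 replicate 3. Ifnb1 is counted in these 4, but for the reason given it is not read as a call.

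A list of 29 genes held partners of p204 and p202 and other genes of muscle and growth control. Of these, 1 was called higher and 0 lower, compared with 1.73% and 0.336% of all genes. The median log2 fold change of the list was 0.05. The growth regulator gene Myc had 37.7, 35.3 and 33.9 FPKM in the siNC libraries and 75.0, 64.1 and 64.3 FPKM in the siCNN3 libraries (limma adjusted p = 0.016). Its call was lost with the replicate block, and also when siNC replicate 3, replicate 1 of siCNN3 or replicate 2 of siCNN3 was left out. Myod1, the muscle regulator known to induce Ifi204, had 2.07, 1.93 and 3.10 FPKM in the siNC libraries and 1.505, 1.57 and 1.37 FPKM in the siCNN3 libraries, lower in each siCNN3 library than in any siNC library, but it was not called. Of the 29 genes, 4 stood apart in this direction and 3 in the opposite direction. Myog had 1.23, 3.07 and 2.26 FPKM in the siNC libraries and 0.785, 0.907 and 0.485 FPKM in the siCNN3 libraries, and it was not called either.

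Targets of p204 among the Id genes, which hold back muscle differentiation, were not called. Id1 had log2 fold changes of 0.32 (SE 0.15), Id2 of -0.01 (SE 0.40) and Id3 of 0.35 (SE 0.28). The retinoblastoma gene Rb1, whose product p204 binds, had a log2 fold change of -0.39 (SE 0.16) and was not called. Of 16 muscle markers tested, 8 were called lower and 0 higher, compared with 0.336% and 1.73% of all genes. The median log2 fold change of the 16 was -1.15. The other 8 were not called, among them Myf5, named after its values were seen, with a log2 fold change of 0.88 (SE 0.32) and overlapping groups. The count called lower was 5 without siNC replicate 1, 1 without siNC replicate 3, 2 without siCNN3 replicate 1 and 1 without siCNN3 replicate 2, and without siCNN3 replicate 3 Myf5 was called higher. The summed level of all 17 listed muscle markers was between 223.9 and 276.7 FPKM in siNC and between 137.0 and 149.7 FPKM in siCNN3. By log2 fold change of FPKM + 1, the called markers with the largest decrease were Acta1, Mylpf, Tnnt1, Tnnc2 and Tnnt3, in that order. This scale understates changes at low levels, so the order of the fold changes of the means can differ. Acta1 had a log2 fold change of -2.12 (limma adjusted p = 0.0047). The part of these differences in the levels of the members was not tested.

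Leukocytes express much of this family, so their markers were checked. Of 19 leukocyte markers 5 were listed, 4 passed the minimum level, and 0 were called. Their summed level was between 29.8 and 35.0 FPKM in siNC and between 24.1 and 35.5 FPKM in siCNN3. Single markers, named after their values were seen, differed in direction. Cd68 and Lyz2 were lower in each siCNN3 library than in any siNC library, with log2 fold changes of -0.54 and -0.83, and neither was called. The share of all genes that were lower in this way is not given here. Cd14, the marker with the highest mean in both groups, had overlapping groups and a log2 fold change of -0.22. Cd53 had 6.40, 7.40 and 9.70 FPKM in the siNC libraries and 14.2, 15.9 and 7.80 FPKM in the siCNN3 libraries, with overlapping groups and with replicate 3 of siCNN3 lowest in its group, as in the Ifi200 genes. The part of these markers in the levels of the members was not tested. Defining markers such as Ptprc, Adgre1 and Csf1r were not among the listed genes. Of the endothelial markers only Tek was listed, and it is named after its values were seen. It was at no more than 1.37 FPKM in any library, and it was not called.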

How the data were processed

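RNA of 3 siNC and 3 siCNN3 libraries of C2C12 cells was sequenced. The authors deposited FPKM per Ensembl transcript for 24023 transcripts. The submitters' processing notes name Bowtie 0.12.2 and the builds mm8 and mm10. The program that estimated FPKM and its annotation are not given in the sources used here, and the depth is unknown. Identifiers without their version matched 23949 GENCODE M21 transcripts (GRCm38), and FPKM were summed per gene symbol. A gene entered the fit if its FPKM averaged 0.5 or more across libraries, and log2(FPKM + 1) was fitted with limma 3.58.1 in R 4.3.3 (mean-variance trend, no block, Benjamini-Hochberg adjustment, threshold 0.05). This fit was tested on simulated data.

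Members, gene lists and tests were chosen with earlier results of these data known. Named genes are the members, Cnn3, called genes of each list (at most the 5 with the largest change), 6 fixed muscle partners, the 3 genes nearest to each called member in the 6 libraries, and tested genes within 500 kb. Any other gene is marked as named after its values were seen. The values of 1 called gene of the interferon signalling list are not reported here. Alternatives were a pseudocount of 0.1, no filter or 5 FPKM, median-of-ratios scaling, quantile normalization, a replicate block, limma without a trend, identifiers with version, each transcript on its own (members only), and each library left out. Counting calls in each gene list under these settings was added after the data were seen. Promoter windows are from RefSeq (GRCm38.p6), and shared 31-base words were counted over GENCODE transcripts. Python 3.11.15 (pandas 2.3.3, matplotlib 3.10.9, numpy 2.4.6) was used for tables and figures.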

Additional observations from a re-analysis of the deposited data

How the results depend on the processing

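The log2 fold changes of all 10 members kept their sign in each of the 15 alternative fits, but their size and the number called did not. With a pseudocount of 0.1, the log2 fold change of Ifi208 was 6.25, that of Ifi209 5.41 and that of Ifi205 6.61, so that Ifi208 and Ifi209 passed Ifi207 (4.23). Fitted as single transcripts, the most abundant transcripts of Ifi203, Ifi204 and Ifi211 were not called. Called members numbered between 1 (without siNC replicate 3) and 9 (without siCNN3 replicate 3) when 1 library was left out. Over all genes, leaving out 1 library gave between 16 and 443 genes called higher, compared with 200, and between 4 and 159 called lower, compared with 39, with both lowest counts reached without siNC replicate 3 and both highest without siCNN3 replicate 3. The log2 fold change of Cnn3 lay between -1.46, without siCNN3 replicate 2, where it was called, and -0.95, without siCNN3 replicate 1. Median-of-ratios scaling gave 63 genes called lower and quantile normalization 93. With the replicate block, 62 genes were called higher and 6 lower, and 6 members were called, along with 2 muscle markers lower and 0 genes of interferon signalling. Replicates with the same number in siNC and siCNN3 had deviations that correlated at -0.28, 0.31 and -0.02. Between different numbers the correlations lay between -0.45 (siNC replicate 2 with siCNN3 replicate 3) and 0.44 (siNC replicate 1 with siCNN3 replicate 3). With so few libraries these values cannot decide whether equal numbers belong together, and the labels do not say. The causes of the changes between fits were not tested. The depth is unknown, and with 3 libraries a group, 1 library decides many calls. FPKM of genes that share sequence are uncertain, and an exact 0 can be a failed estimate.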
